A study of Mus musculus with 16 samples.

Results

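The genes Marco, Msr1, Emr1, Gpnmb, Cd163, Vcam1 and Cd68 encode scavenger receptors and surface or lysosomal markers of macrophages, and here they were followed across cultured dendritic cells from the bone marrow of lupus-prone mice. They were chosen by name, as 7 of the 24001 rows of the deposited expression table. No measured value entered the rule, but earlier results of these data were known. Expression was given as FPKM, fragments scaled for transcript length and library size. The FPKM of all genes summed to 481738 to 522287 in the unoperated libraries and 612322 to 696321 in the ovariectomized ones, so a level set between those sets depends on the scaling, and results that turned with libraries scaled to equal sums are named. Of the 7 genes, 6 reached 1 FPKM in at least 2 of the 16 libraries and were tested; Cd163 did not reach it in any.

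All mice were of the NZM2410 strain, which develops a lupus-like disease. Bone marrow was grown for 7 days with GM-CSF at 20 ng/ml and IL-4 at 10 ng/ml, and the design text describes the sequenced cells as CD11c-high. The cultures received vehicle or, for 24 h, loxoribine (a TLR7 agonist, 200 μmol/ml by the label, whose unit may be wrong) together with CpG (a TLR9 agonist, 1 μg/ml). There were 4 arms with 2 libraries per treatment. The WT arm carried wild-type estrogen receptor alpha (ERα) and had no surgery. The KO arm, labelled ERKO Shrt, also had no surgery. The ERKO OVX arm (ERKO Shrt OVX) and the Ex3a OVX arm (ERKO NULL OVX) came from mice ovariectomized at 4 to 8 weeks of age and then given a 0.25 mg, 90-day pellet of 17β-estradiol; no ovariectomized WT arm was analysed here.

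The allele of the mutant arms is uncertain. The genotype labels give vehicle libraries of the KO and ERKO OVX arms the Esr1(tm4.2Ksk) allele, described as without ERα activity. They give the agonist libraries of those arms, and every Ex3a OVX library, the Esr1(tm1Ksk) allele, described as making a truncated ERα short. This contradicts the arm names, so groups are called by arm name and no allele is assigned to a result. Esr1, the targeted gene, lay between 0.684 and 1.38 FPKM in the 4 WT libraries, between 1.77 and 2.57 in the KO libraries, between 0.982 and 1.16 in the ERKO OVX libraries and between 0.283 and 0.364 in the Ex3a OVX libraries. A level per gene does not show which part of the transcript is present, and it did not separate the KO arm from WT as a loss.

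Scavenger receptors bind modified lipoproteins, microbial surfaces and debris and carry them into the cell. Marco and Msr1 (scavenger receptor A) are trimeric class A receptors with a collagenous stalk, and Marco is known to be induced by Toll-like receptor ligands in macrophages and dendritic cells. Cd163 takes up complexes of haptoglobin with hemoglobin and marks resident macrophages. Emr1 (now Adgre1) encodes an adhesion G protein-coupled receptor long used as a surface marker of mouse macrophages. Vcam1 encodes an adhesion molecule that binds the integrin of Itga4 with Itgb1 on leukocytes. Gpnmb, a transmembrane glycoprotein, and Cd68 (macrosialin), a sialomucin of late endosomes and lysosomes, are abundant in phagocytes, and Gpnmb is a known target of the MITF family of lysosomal transcription factors.

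In GRCm38 (mm10, the build in the submitters' processing notes) with the GENCODE M21 annotation, Marco lies on chromosome 1 from 120474538 to 120505024 on the minus strand, Msr1 on chromosome 8 from 39581685 to 39642673 (minus), and Adgre1 on chromosome 17 from 57358691 to 57483527 (plus). Gpnmb lies on chromosome 6 from 49036546 to 49070929 (plus) and Cd163 on the same chromosome from 124304656 to 124330527 (plus). Vcam1 lies on chromosome 3 from 116109949 to 116129688 (minus), and Cd68 on chromosome 11 from 69664213 to 69666153 (minus). Only Vcam1 has exons that overlap those of another annotated gene, Gm43109 on the opposite strand. Whether counting used strand is not stated in these sources, so reads of that pair could not be told apart.

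The RefSeq promoter table (GRCm38.p6) held 4 of the 7 genes, and 3 are printed because Marco had the widest range of levels, while Gpnmb and Cd68, both of the lysosomal compartment, had much the same order of levels. Each sequence is the 250 bases before the start of the gene, written 5′ to 3′ on the gene's strand, with capitals at matches to the motifs searched. The regions are chr1:120505025-120505274 (minus strand) for Marco, chr6:49036268-49036517 (plus) for Gpnmb and chr11:69666171-69666420 (minus) for Cd68.
Marco: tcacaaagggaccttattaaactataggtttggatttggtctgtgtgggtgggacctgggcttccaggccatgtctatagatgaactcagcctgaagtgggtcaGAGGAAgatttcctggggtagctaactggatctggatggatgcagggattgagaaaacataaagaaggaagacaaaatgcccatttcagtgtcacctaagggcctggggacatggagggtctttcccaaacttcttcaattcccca
Gpnmb: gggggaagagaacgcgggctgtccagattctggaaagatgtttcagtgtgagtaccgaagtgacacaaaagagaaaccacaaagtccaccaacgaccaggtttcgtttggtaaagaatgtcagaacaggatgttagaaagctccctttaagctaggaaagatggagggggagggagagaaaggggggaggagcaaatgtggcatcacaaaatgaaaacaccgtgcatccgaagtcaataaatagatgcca
Cd68: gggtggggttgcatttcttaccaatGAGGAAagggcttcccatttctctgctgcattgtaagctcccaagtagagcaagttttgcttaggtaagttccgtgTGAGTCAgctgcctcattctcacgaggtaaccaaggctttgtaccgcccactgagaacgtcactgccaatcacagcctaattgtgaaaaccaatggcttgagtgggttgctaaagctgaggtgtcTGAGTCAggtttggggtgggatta
Both strands were searched for the AP-1 site TGANTCA, the PU.1 core GAGGAA, the MITF E-box CACATG, the E-box CACGTG, the STAT site TTCNNNGAA, the TATA box TATAAA and the NF-kB consensus. The Cd68 promoter held TGAGTCA at 149 to 143 and at 24 to 18 bases before the start, and GAGGAA at 225 to 220. Marco had GAGGAA at 146 to 141 bases before the start, and the Gpnmb window had none of the 7 motifs. For comparison, 6.753% of 32817 promoters of the same length held TGANTCA and 23.253% held GAGGAA, so a PU.1 core match is common. The shares were 12.259% for CACATG, 6.021% for CACGTG, 7.015% for the STAT site, 12.372% for TATAAA and 7.249% for the NF-kB consensus. A match is a description of letters and not of binding.

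Library depth was estimated at 36500000 to 43800000 fragments in the 8 unoperated libraries and 17600000 to 23700000 fragments in the 8 ovariectomized ones. The libraries of each ovariectomized pair differed from each other by less than sampling noise (variance ratios of 0.79 to 0.924 over genes with many fragments, against 1.99 to 5.12 in the unoperated pairs). The 2 libraries of such a pair may be repeat sequencing or repeat deposits of 1 library, so the gap between 2 such pairs was not measured against any spread between cultures or animals. Each such pair entered as its mean, as 1 sample, and these samples were assumed to vary like the unoperated ones. The labels do not tie the 2 libraries of a group to different mice or culture wells. The p-values thus rest on library-to-library spread alone, which may be technical. Itgax, which encodes CD11c, had group means of 86.2 to 154 FPKM in all arms.

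Across the 8 groups the genes formed a widely ranging set (Marco, Emr1, Vcam1) and a narrowly ranging set (Msr1, Gpnmb, Cd68). The highest group mean exceeded the lowest 96.3-fold for Marco, 34.0-fold for Emr1 and 26.9-fold for Vcam1, but 4.16-fold for Msr1, 3.99-fold for Gpnmb and 3.94-fold for Cd68. Gpnmb was the most abundant, between 831.5 and 3368 FPKM, and was among the 82 highest genes in every library, with small RNAs left out. Marco ranged, in the same ranking, from rank 7763 in a WT vehicle library to rank 195 in an Ex3a OVX agonist library. Cd163 never exceeded 0.135 FPKM. Libraries of different groups never overlapped for the 6 tested genes when groups were ordered by level. The share of all genes for which this held was not counted, and the libraries of each ovariectomized pair differed by less than sampling noise. For 8 of 42 neighbouring pairs of groups the 95% interval of the difference included 0. Those were vehicle and agonist in ERKO OVX for Marco, Gpnmb and Vcam1, and ERKO OVX vehicle with KO vehicle for Msr1. They were also ERKO OVX agonist with Ex3a OVX vehicle for Emr1, KO vehicle with WT agonist for Vcam1, and Ex3a OVX with ERKO OVX of the same treatment for Cd68. The order of Gpnmb rested on the scaling: as deposited all ovariectomized libraries (2359 FPKM or more) were above all unoperated ones (2254 or less), but scaled to a sum of 1000000 per library the WT vehicle libraries (4604 and 4519) exceeded every ovariectomized library except those of Ex3a OVX vehicle (5099 and 5120).

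**Figure D1:**
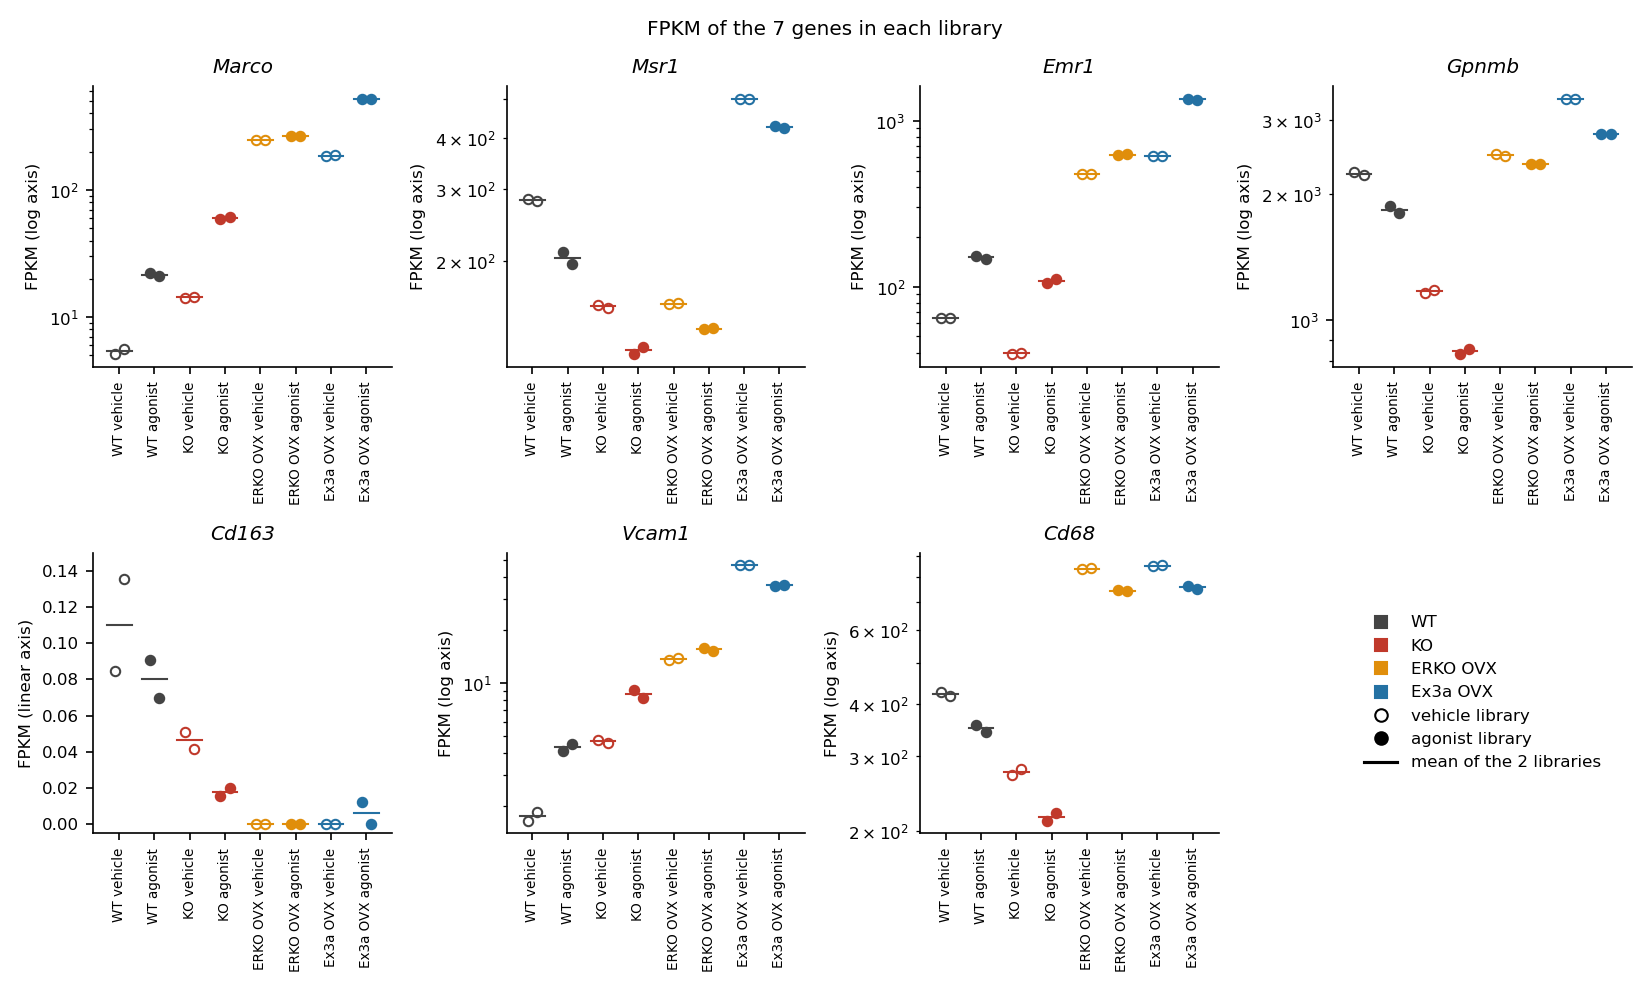
FPKM of each of the 7 genes in all 16 libraries, on log axes except for Cd163; open points are vehicle libraries, filled points agonist libraries, and lines the mean of the 2 libraries. Marco, Emr1, Cd68, Gpnmb and Vcam1 were higher in all ovariectomized libraries than in all unoperated ones, while Msr1 was not. For Gpnmb this order did not hold with libraries scaled to equal FPKM sums. The share of all genes with such an order was not counted.

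Marco rose with the TLR7 and TLR9 agonists in every arm, but the small rise in ERKO OVX did not pass the test. In WT it read 5.13 and 5.63 FPKM with vehicle and 22.1 and 21.1 FPKM with agonist, and in KO 14.2 and 14.5 FPKM against 59.3 and 61.4 FPKM. These are 4.02-fold and 4.20-fold differences of mean FPKM. In the model, which works on log2(FPKM + 1) and so understates changes of low genes, the log2 fold change was 1.83 ± 0.04 (SE) in WT (limma with Benjamini-Hochberg adjustment over all tested genes, adjusted p = 5.02e-10) and 1.998 ± 0.04 in KO (adjusted p = 4.69e-10). By size these were the 45th and the 29th largest increases among 11346 and 11345 genes.

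In the ovariectomized arms Marco started from a far higher level. The ERKO OVX vehicle libraries had 245 and 247 FPKM and the agonist libraries 265 and 264 FPKM, a log2 difference of 0.10 that did not pass the test (95% interval -0.02 to 0.23, adjusted p = 0.175). Scaled to equal FPKM sums, that difference was 0.18 with an adjusted p of 0.0266, and with all 16 libraries as separate samples its adjusted p was 0.0146. In Ex3a OVX, Marco rose from 186 and 187 to 521 and 514 FPKM. That log2 change of 1.47 ± 0.06 (adjusted p = 3.57e-07) was the 19th largest increase of the arm.

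Msr1, the other class A receptor, fell in all 4 arms, by little. With vehicle and then agonist it read 284 and 280 against 209.9 and 196 FPKM in WT, and 156 and 153 against 118 and 123 FPKM in KO. In ERKO OVX the values were 156 and 157 against 136 and 136 FPKM, and in Ex3a OVX 500.1 and 500.7 against 429 and 425 FPKM. The agonist libraries were thus the lower ones in each arm, but the share of all genes for which this held was not counted. The log2 changes were -0.47 ± 0.03 in WT (adjusted p = 1.38e-06), -0.36 ± 0.03 in KO (1.31e-05), and, with surgery, -0.20 ± 0.05 for ERKO OVX (0.00954) and -0.23 ± 0.05 for Ex3a OVX (0.00486). The ERKO OVX change did not pass with libraries scaled to equal FPKM sums (adjusted p = 0.0656).

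The ratio of the 2 receptors differed widely between arms and treatments. WT vehicle libraries held 55.3 and 49.8 times as much Msr1 as Marco, and WT agonist libraries 9.51 and 9.26 times. The ratio was 10.97 and 10.6 in KO vehicle and 1.99 and 2.001 in KO agonist libraries. Marco exceeded Msr1 in 3 groups, namely both ERKO OVX groups (ratios of Msr1 to Marco of 0.636 and 0.636 with vehicle, 0.514 and 0.516 with agonist) and the Ex3a OVX agonist group (0.823 and 0.826). In the Ex3a OVX vehicle group Msr1 was the higher, at 2.69 and 2.67 times Marco.

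**Figure D2:**
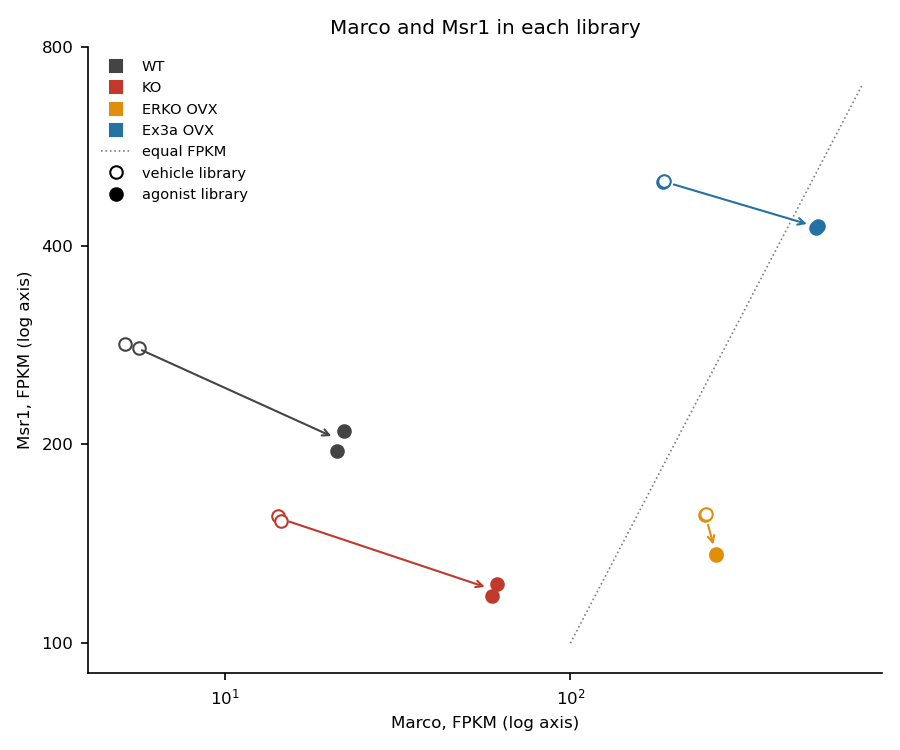
Marco (x axis) against Msr1 (y axis) in FPKM for each of the 16 libraries, both on log axes, with arrows from the vehicle to the agonist libraries of an arm and a dotted line where both are equal. All arrows point down and to the right, that of ERKO OVX hardly to the right, and the ERKO OVX libraries and Ex3a OVX agonist libraries lie beyond the line of equality.

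Cd163, the hemoglobin scavenger receptor, was near the limit of detection. It read 0.0846 and 0.135 FPKM in WT vehicle, 0.0906 and 0.0694 in WT agonist, 0.0512 and 0.0413 in KO vehicle and 0.0157 and 0.0201 in KO agonist libraries. Those values correspond to an estimated 13.5 to 22.0 fragments per WT library and 2.90 to 9.67 per KO library. In the ovariectomized arms it was listed at 0 in 7 of 8 libraries, with 0.0123 FPKM, about 1 fragment, in the first Ex3a OVX agonist library. No test was made, and the lower depth of the ovariectomized libraries limits what could be seen there.

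Emr1 rose with agonist in all 4 arms, and was the only gene of the 6 tested whose rise passed in each. Marco did so too with equal FPKM sums and with all 16 libraries as separate samples. Its FPKM went from 64.6 and 64.2 to 154 and 146 in WT and from 39.2 and 40.0 to 106 and 110 in KO. It went from 474 and 478 to 621 and 627 in ERKO OVX and from 612 and 609.5 to 1353 and 1335 in Ex3a OVX. Agonist libraries were the higher ones in every arm, but the share of all genes for which this held was not counted. The log2 changes were 1.21 ± 0.03 in WT (adjusted p = 1.01e-09), 1.42 ± 0.03 in KO (6.78e-10), and, with surgery, 0.39 ± 0.04 for ERKO OVX (1.25e-04) and 1.14 ± 0.04 for Ex3a OVX (3.37e-07). On the scale of mean FPKM these were 2.33-fold, 2.73-fold, 1.31-fold and 2.20-fold.

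Vcam1 was the scarcest tested gene and the one whose direction differed between arms. In WT it read 1.65 and 1.83 FPKM with vehicle and 4.11 and 4.497 with agonist, a 2.47-fold difference of means, and in KO 4.74 and 4.58 against 9.08 and 8.18 FPKM, a 1.85-fold difference. It rose in both, with log2 changes of 0.95 ± 0.06 (adjusted p = 3.82e-07) and 0.77 ± 0.06 (adjusted p = 2.40e-06). With a pseudocount of 5 FPKM in place of 1 these were 0.47 and 0.50, past the threshold still. ERKO OVX libraries had 13.5 and 13.9 against 15.9 and 15.3 FPKM, a log2 difference of 0.17 that did not pass (interval -0.01 to 0.35, adjusted p = 0.115; 0.0382 with equal FPKM sums and 0.00901 with all 16 libraries). In Ex3a OVX it fell from 46.9 and 46.8 to 35.6 and 36.3 FPKM (log2 change -0.37 ± 0.08, adjusted p = 0.00558).

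Gpnmb fell in 3 arms and Cd68 in 4, each by less than 1.5-fold. Gpnmb read 2254 and 2213 FPKM with vehicle and 1870 and 1799.5 with agonist in WT, and 1164 and 1181 against 832 and 855 in KO. In ERKO OVX it read 2492 and 2466 against 2361 and 2359, and in Ex3a OVX 3365 and 3368 against 2784 and 2776 FPKM. The lowest libraries were those of KO with agonist and the highest those of Ex3a OVX with vehicle. The log2 changes were -0.28 ± 0.02 in WT (adjusted p = 5.52e-06), -0.47 ± 0.02 in KO (1.83e-07) and -0.28 ± 0.03 in Ex3a OVX (2.70e-04). In ERKO OVX the difference of -0.07 did not pass (interval -0.15 to 0.01, adjusted p = 0.133), was 0.01 with equal FPKM sums, and passed with all 16 libraries (adjusted p = 0.00467).

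Cd68 read 426 and 418 FPKM with vehicle and 357 and 342.5 with agonist in WT, and 272 and 280 against 211 and 220 in KO. In ERKO OVX it read 837 and 840 against 744 and 743, and in Ex3a OVX 849 and 854 against 764 and 751 FPKM. Within each arm both agonist libraries lay below both vehicle libraries, but the share of all genes with such an order was not counted. The log2 changes were -0.27 ± 0.03 in WT (adjusted p = 3.16e-05), -0.35 ± 0.03 in KO (5.56e-06), and, with surgery, -0.17 ± 0.04 for ERKO OVX (0.00995) and -0.17 ± 0.04 for Ex3a OVX (0.011). The ERKO OVX change did not pass with equal FPKM sums (adjusted p = 0.0834).

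These counts have to be read against how many genes passed at all. In WT all 6 tested genes passed, 3 in each direction, where 57.9% of all tested genes passed (30.8% higher, 27.1% lower). In KO all 6 passed, again 3 in each direction, where 51.3% of all genes did (25.9% higher, 25.3% lower). In ERKO OVX 3 of 6 passed (Emr1 higher, Msr1 and Cd68 lower), where 37.5% of all genes did (18.3% higher, 19.2% lower). In Ex3a OVX all 6 passed, with Marco and Emr1 higher and the other 4 lower, where 37.3% of all genes did (19.0% higher, 18.3% lower). The median log2 change of the 6 was 0.34, 0.21, 0.02 and -0.20 in that order of arms, beside 0.02, 0.01, 0.00 and 0.01 over all genes. The ERKO OVX count was 6 of 6 with all 16 libraries as separate samples. With equal FPKM sums it was again 3, but as Marco, Emr1 and Vcam1, all higher, with Msr1 and Cd68 no longer past the threshold.

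**Figure D3:**
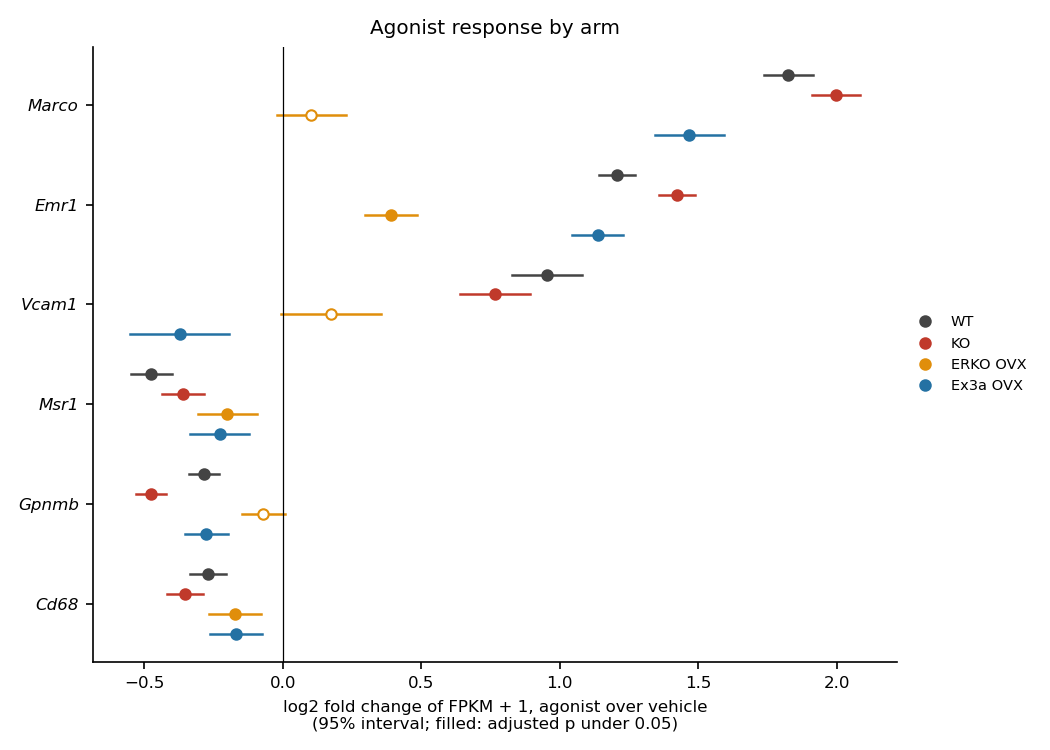
Log2 fold change of FPKM + 1, agonist over vehicle (x axis), for the 6 tested genes (y axis) in each arm; points are estimates, filled where the adjusted p is under 0.05, and bars are 95% intervals. Marco and Emr1 lie at 1.14 or higher in WT, KO and Ex3a OVX but at 0.10 and 0.39 in ERKO OVX, and Vcam1 lies above 0 in WT and KO and below 0 in Ex3a OVX.

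The test of whether responses differed between the ovariectomized arms is an interaction term. The Marco response was larger in Ex3a OVX than in ERKO OVX by 1.37 ± 0.08 on the log2 scale (adjusted p = 2.96e-05), the 16th largest such difference of 11346 genes, and that of Emr1 by 0.75 ± 0.06 (adjusted p = 7.89e-05). Gpnmb differed by -0.21 ± 0.05 (0.0114) and Vcam1 by -0.55 ± 0.11 (0.00616), so that both had the lower change in Ex3a OVX. With equal FPKM sums the Gpnmb value was -0.34. For Msr1 the difference was -0.03 (interval -0.18 to 0.12, adjusted p = 0.786) and for Cd68 0.00 (interval -0.13 to 0.14, adjusted p = 0.963). Thus 4 of 6 genes passed, 2 in each direction, where 31.3% of all genes did (16.6% higher, 14.6% lower).

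Between KO and WT, the response of 2 genes differed. Emr1 rose by 0.22 ± 0.04 more in KO (adjusted p = 0.014) and Gpnmb fell by 0.19 further (difference -0.19 ± 0.03, adjusted p = 0.0105), which makes 2 of 6, 1 in each direction, where 6.96% of all genes passed (2.3% higher, 4.66% lower). The calls rest on single libraries: without the second WT vehicle library neither passed (adjusted p = 0.0556 and 0.0589), and Emr1 did not pass without the first WT vehicle (0.061) or the first KO vehicle library (0.0591). Neither passed with no filter on low genes (0.0667 and 0.0555), and Gpnmb did not pass with equal FPKM sums (0.0571). The Marco difference of 0.17 did not pass (interval 0.05 to 0.30, adjusted p = 0.1), but did with a pseudocount of 5 FPKM (0.40, adjusted p = 6.12e-04), with equal FPKM sums (0.029), with all 16 libraries (0.0271) and without the first WT vehicle library (0.0469). Msr1 (0.12, interval 0.01 to 0.22, adjusted p = 0.193) passed with equal FPKM sums (0.0339). Vcam1 (-0.19, interval -0.37 to -0.01, adjusted p = 0.212) passed with a pseudocount of 0.1 FPKM (0.048) and was 0.03 with one of 5 FPKM. Cd68 differed by -0.08 (interval -0.18 to 0.01, adjusted p = 0.276).

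Compared with WT, KO cells had more Marco and Vcam1 and less Msr1, Emr1, Gpnmb and Cd68, with either treatment. All 6 passed with vehicle, 2 higher and 4 lower, where 60.3% of all genes did (31.5% higher, 28.7% lower). With agonist all 6 passed in the same directions, where 54.8% of all genes did (27.2% higher, 27.6% lower). The median of the 6 was -0.65 with vehicle and -0.58 with agonist, beside 0.01 and 0.00 over all genes. KO and WT libraries of the same treatment never overlapped for these genes, but the share of all genes without such overlap was not counted.

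Marco was 2.67-fold higher in KO by mean FPKM with vehicle (log2 1.27 ± 0.04, adjusted p = 5.71e-09) and 2.79-fold with agonist (1.44 ± 0.04, adjusted p = 2.48e-09). The latter was the 10th largest increase among 11345 genes. Msr1 went the other way, at 1.82-fold lower with vehicle (-0.86 ± 0.03, adjusted p = 2.69e-08) and 1.69-fold lower with agonist (-0.75 ± 0.03, adjusted p = 8.05e-08). The class A receptors therefore differed in opposite directions in this comparison as well.

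Vcam1 was 2.68-fold higher in KO with vehicle (1.05 ± 0.06, adjusted p = 2.29e-07) and 2.01-fold with agonist (0.86 ± 0.06, adjusted p = 1.06e-06); with a pseudocount of 5 FPKM the log2 values were 0.52 and 0.55. Emr1 had log2 fold changes of -0.69 ± 0.03 with vehicle (adjusted p = 4.96e-08) and -0.47 ± 0.03 with agonist (7.26e-07). Gpnmb had log2 fold changes of -0.93 ± 0.02 (1.88e-09) and -1.12 ± 0.02 (5.70e-10), and Cd68 of -0.61 ± 0.03 (1.03e-07) and -0.69 ± 0.03 (5.37e-08). Gpnmb thus reached 2.18-fold lower in KO with agonist, at 844 against 1835 FPKM.

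Between the ovariectomized arms, Ex3a OVX had more Msr1 and Vcam1 than ERKO OVX, by about 3-fold with vehicle. Msr1 was 3.20-fold higher with vehicle (log2 1.67 ± 0.05, adjusted p = 3.66e-09) and 3.14-fold with agonist (1.64 ± 0.05, adjusted p = 4.03e-09). Vcam1 was 3.42-fold higher with vehicle (1.70 ± 0.08, adjusted p = 9.09e-08) and 2.31-fold with agonist (1.16 ± 0.08, adjusted p = 1.24e-06). With vehicle 5 of 6 genes passed, 4 higher and Marco lower, where 55.3% of all genes did (29.3% higher, 26.1% lower). With agonist 5 of 6 passed, all higher, where 62.8% of all genes did (32.1% higher, 30.6% lower). The median of the 6 was 0.40 and 1.04, beside 0.02 and 0.00 over all genes.

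Marco changed sides with treatment. With vehicle it was lower in Ex3a OVX (-0.40 ± 0.06, adjusted p = 1.96e-04) and with agonist higher (0.97 ± 0.06, adjusted p = 3.29e-07). Emr1 was higher by 0.36 ± 0.04 (5.54e-05) and 1.11 ± 0.04 (2.13e-08), and Gpnmb by 0.44 ± 0.03 (3.06e-06) and 0.24 ± 0.03 (2.15e-04). The last value was 0.08 with equal FPKM sums, where it did not pass (adjusted p = 0.0531). For Cd68, the gene that did not pass, the difference was 0.02 with vehicle (interval -0.07 to 0.12, adjusted p = 0.673) and 0.03 with agonist (interval -0.07 to 0.12, adjusted p = 0.598). With equal FPKM sums the latter was -0.13 (adjusted p = 0.0162), under a scaling that moved the median of all genes to -0.12.

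**Figure D4:**
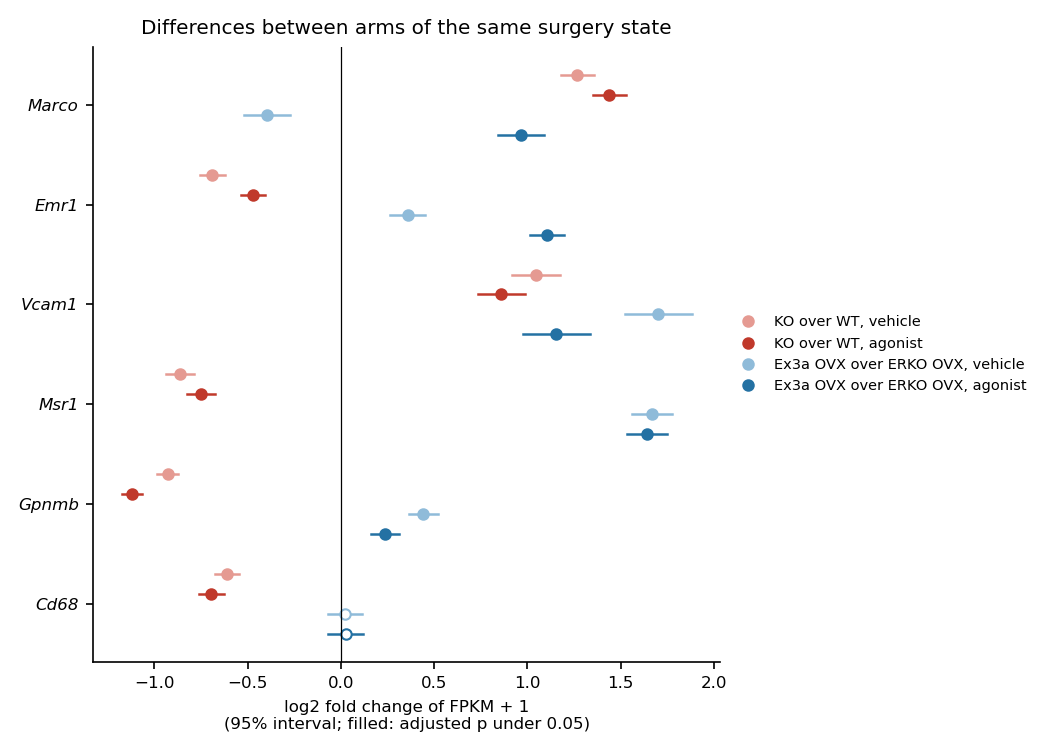
Log2 fold change of FPKM + 1 (x axis) of the 6 tested genes (y axis) between arms of the same surgery state; points are estimates, filled where the adjusted p is under 0.05, and bars are 95% intervals. Msr1, Gpnmb, Emr1 and Cd68 lie below 0 for KO over WT and at or above 0 for Ex3a OVX over ERKO OVX, and Marco changes sign with treatment in the latter.

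The ERKO OVX and KO arms share the ERKO Shrt name and differ in surgery and estradiol. Library depth differs between them too, and the effects of these cannot be told apart. With vehicle, 5 of 6 genes were higher in ERKO OVX, where 80.9% of all genes passed (40.9% higher, 40.0% lower). With agonist all 6 were higher, where 78.7% of all genes passed (40.1% higher, 38.6% lower). Marco was 17.2-fold higher by mean FPKM with vehicle (log2 4.01 ± 0.05, adjusted p = 5.11e-12) and 4.38-fold with agonist (2.11 ± 0.05, adjusted p = 1.94e-10). Emr1 was 12.03-fold higher (3.56 ± 0.04, adjusted p = 3.59e-12) and 5.78-fold (2.52 ± 0.04, adjusted p = 1.91e-11). By size the vehicle values were the 20th and the 28th largest increases of 11346 genes.

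Cd68 (1.60 ± 0.04 with vehicle, 1.78 ± 0.04 with agonist), Gpnmb (1.08 ± 0.03 and 1.48 ± 0.03) and Vcam1 (1.38 ± 0.07 and 0.79 ± 0.07) were higher by smaller amounts, with adjusted p-values from 1.10e-10 to 2.74e-06. With equal FPKM sums, Gpnmb with vehicle was 0.67 and Vcam1 with agonist 0.50. Msr1 was the exception. Its difference was 0.02 with vehicle (interval -0.07 to 0.11, adjusted p = 0.695) and 0.18 ± 0.04 with agonist (adjusted p = 0.00277). The direction flipped with equal FPKM sums, to -0.39 (adjusted p = 7.05e-06) and -0.13 (adjusted p = 0.0119), a scaling that moved the median of all genes from 0.01 to -0.34 and from 0.01 to -0.26. Relative to that median Msr1 stood at 0.01 and 0.16 as deposited and at -0.05 and 0.12 after scaling.

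Markers of other cells differed along with these levels. The summed FPKM of 6 monocyte markers was 216 to 247 in unoperated and 2474 to 3960 in ovariectomized libraries (3 to 4 and 4 markers at 1 FPKM or more), chiefly through Ly6c2, whose group means were 145 to 199 against 2421 to 3668 FPKM. The list did not move as a whole: of 5 tested markers 3 were higher (Plac8 4.51, Ly6c2 3.85) and 2 lower (Fn1 -4.62, Ccr2 -2.37) in ERKO OVX against KO with vehicle. That of 8 markers of granulocyte precursors and neutrophils was 50.5 to 119.8 against 295 to 1299 (2 to 3 and 6 to 8 markers at 1 FPKM or more), and that of 6 basophil and mast cell markers 1.88 to 2.83 against 19.3 to 81.5 (1 to 2 and 4 to 6 markers). The sum of 8 conventional dendritic cell markers went the other way, from 1308 to 2407 in unoperated to 323 to 702 in ovariectomized libraries (6 and 5 markers at 1 FPKM or more). It was mostly Ccr7, whose group means were 1122 to 2177 against 207 to 505 FPKM. Of 6 tested markers, 5 were lower in ERKO OVX against KO with vehicle and 1 higher (Itgax, 154 against 113 FPKM). In that comparison 40.9% of all genes were higher and 40.0% lower. The 9 osteoclast markers overlapped between the sets, at 479 to 696 and 439 to 935. The part of these markers in the levels of Marco, Emr1, Cd68, Gpnmb and Vcam1 was not tested, and in bulk RNA fewer cells of a type cannot be told apart from less RNA per cell.

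Markers of other cell types were low. The summed level of 9 stromal markers was at most 6.23 FPKM, of 5 B and plasma cell markers at most 9.20 and of 6 T and NK cell markers at most 16.6, each higher in ovariectomized libraries, and that of 6 erythroid markers at most 1.42. The sum of 6 endothelial markers, which matter for Vcam1 because endothelium can express it, was 11.5 to 19.6 in unoperated and 16.5 to 21.5 in ovariectomized libraries. Its main members did not move together. Group means of Kdr were 1.14 to 3.72 FPKM in unoperated and 5.18 to 8.60 in ovariectomized arms, and those of Vwf 9.98 to 14.0 and 7.19 to 12.6. The part of endothelial cells in the Vcam1 level was not tested. Within the unoperated arms, markers moved with the KO difference as well: 4 of 6 tested dendritic cell markers were higher and 1 lower in KO with vehicle, and 5 of 8 granulocyte markers were higher, led by S100a9 at 2.32 on the log2 scale. Of all genes, 31.5% were higher and 28.7% lower in that comparison. Among the dendritic cell, monocyte, granulocyte and basophil markers, those at 0 in every library of a group were Elane in WT agonist and both KO groups, Fcer1a and Ms4a2 in WT agonist, and Cpa3 in KO vehicle.

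**Figure D5:**
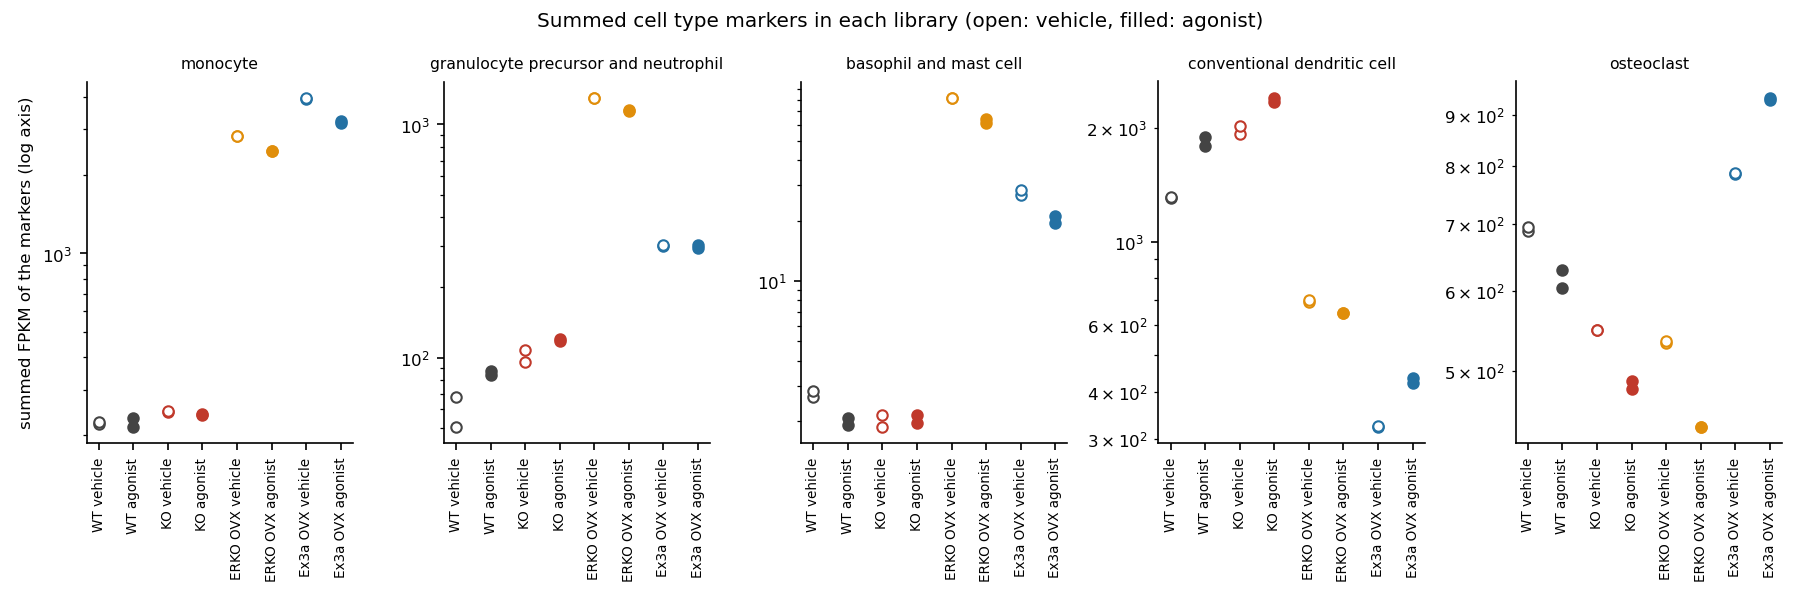
Summed FPKM of the markers of 5 cell types (y axes, log scale) in each library (x axis, by group); open points are vehicle and filled points agonist libraries. Monocyte, granulocyte and basophil or mast cell sums are higher, and dendritic cell sums lower, in every ovariectomized library than in every unoperated one. The share of all genes with such an order was not counted. Ly6c2 makes up most of the monocyte sum and Ccr7 most of the dendritic cell sum. Fn1 and Ccr2 of the monocyte list were lower in ERKO OVX than in KO, and Itgax of the dendritic cell list was higher.

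Genes of related function were counted from lists chosen with earlier results of these data known. The counts stand beside the shares of all genes given above for each comparison. Of all genes, 30.8% rose and 27.1% fell in the WT response, and 19.0% and 18.3% in that of Ex3a OVX. In KO against WT with vehicle 31.5% were higher and 28.7% lower. In Ex3a OVX against ERKO OVX with vehicle 29.3% were higher and 26.1% lower. Of 19 other scavenger receptors 13 were tested. With agonist 3 rose and 8 fell in WT (median -0.21, all genes 0.02), among them Stab1 (-0.62), Colec12 (-0.57), Olr1 (0.41) and Cd36 (-0.40), and in Ex3a OVX 2 rose and 7 fell, led by Lrp1 (-0.72). In KO against WT with vehicle 5 were higher and 5 lower. The lower ones included Cd36, which takes up oxidized lipoprotein and stood at 777 FPKM in WT vehicle and 299 in KO vehicle (log2 -1.38), Cd5l (-1.20) and Stab1 (-0.90). In Ex3a OVX against ERKO OVX with vehicle 3 were higher, with Stab1 at 1.70, and 7 lower.

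Of 24 other macrophage surface markers 19 were tested, where 57.9% of all genes passed in the WT response, 37.3% in that of Ex3a OVX and 55.3% in Ex3a OVX against ERKO OVX with vehicle (29.3% higher). In response to agonist 4 rose and 12 fell in WT (median -0.43) and 1 rose and 14 fell in Ex3a OVX (median -0.33). The WT changes included Fcgr1 (-1.27), the high-affinity IgG receptor, and Cd14 (0.96), the lipopolysaccharide co-receptor. In KO against WT with vehicle 4 were higher and 14 lower, where 31.5% of all genes were higher and 28.7% lower. The largest changes there were those of C3ar1 (-1.88), Mertk (-1.46), Cx3cr1 (1.45) and Fcgr1 (-1.22). In Ex3a OVX against ERKO OVX with vehicle 17 were higher and 2 lower (median 0.95, all genes 0.02), led by Fcgr1 (2.58), Emr4 (2.54), C3ar1 (2.25) and Trem2 (2.11). Emr1 and Marco rose with agonist in WT while most of the tested list fell.

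For Gpnmb and Cd68 the related list is that of 27 lysosomal and MITF family genes, all tested, to be read against 27.1% of all genes falling in WT, 25.3% in KO, 19.2% in ERKO OVX and 18.3% in Ex3a OVX. In response to agonist 3 rose and 20 fell in WT, and 2 rose and 20 fell in KO. For ERKO OVX the counts were 1 and 14, for Ex3a OVX 1 and 20. In KO against WT with vehicle 2 were higher and 24 lower (median -0.44, all genes 0.01), where 31.5% of all genes were higher and 28.7% lower. The largest changes there were those of the protease gene Ctsl (-1.58), the saposin precursor Psap (-1.06), the lipase gene Lipa (-0.86) and Ctsb (-0.78). In ERKO OVX against KO with vehicle 22 were higher and 3 lower (median 0.54, 40.9% of all genes higher), with Gaa at 1.45 and Grn at 1.27. In Ex3a OVX against ERKO OVX with vehicle 19 were higher and 6 lower (median 0.22, 29.3% of all genes higher), with Ctsk at -1.36 and Lgmn at 1.28.

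Of 17 macrophage and dendritic cell transcription factors, all tested, 9 rose and 4 fell with agonist in WT (median 0.24, all genes 0.02), and 6 rose and 5 fell in Ex3a OVX, where 57.9% and 37.3% of all genes passed. Spic, a factor of iron-recycling macrophages, rose by 0.92 in WT and by 0.91 in Ex3a OVX, and Pparg fell by 0.78 in WT and by 0.57 in Ex3a OVX. In KO against WT with vehicle 8 were higher and 8 lower, with Maf at -1.37, where 31.5% of all genes were higher and 28.7% lower. In Ex3a OVX against ERKO OVX with vehicle 9 were higher and 6 lower, with Maf at 2.01 and Nr1h3, the oxysterol receptor gene, at 1.59. Of all genes, 29.3% were higher and 26.1% lower in that comparison of the ovariectomized arms. Zbtb46, a factor of conventional dendritic cells, was at -2.14 in ERKO OVX against KO with vehicle.

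For Cd163 the neighbouring pathway is heme and iron handling, of which 17 of 18 genes were tested. In KO against WT with vehicle 2 were higher and 11 lower (median -0.56), where 28.7% of all genes were lower. Slc40a1, the iron exporter ferroportin, stood at 164 FPKM in WT vehicle and 16.03 in KO vehicle (log2 -3.28), and Hmox1, heme oxygenase, at 2955 and 488 FPKM (log2 -2.60). In ERKO OVX against KO with vehicle 12 were higher and 4 lower, led by haptoglobin, Hp (3.44), where 40.9% of all genes were higher. For Vcam1, 12 of 17 adhesion genes were tested. With agonist 8 rose and 3 fell in WT, with Icam1 at 0.86, and in Ex3a OVX 5 rose and 6 fell, with Itgb7 at -0.95, where 57.9% and 37.3% of all genes passed. The integrin genes Itga4 and Itgb1, whose product binds VCAM-1, had 25.6 and 167 FPKM in WT vehicle.

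The genes most like each member across the 8 group means were sought among 3943 tested genes that spanned at least 1 log2 unit (leaving out the genes with zeros taken as missing and those with symbols turned into dates), as a description, since the groups share libraries and depth. Marco was most like Slc6a13 (r = 0.9943), Vnn3 (0.9863) and Siglece (0.9835), all 3 highest in Ex3a OVX agonist and lowest in WT vehicle. Msr1 was most like Tifab (0.9887), Slc7a7 (0.9846) and Abcc3 (0.9814). Emr1 was nearest to BC031181 (0.9959), Emc6 (0.9912) and Tm2d1 (0.9906). Gpnmb was nearest to Ugt1a7c (0.9934), Vps37b (0.9789) and Rxra (0.976), Vcam1 to Rab32 (0.9891), Prpf38a (0.9883) and Ptpn6 (0.9866), and Cd68 to Scpep1 (0.9982), Atp6v0c (0.9961) and Tmem9 (0.9957). Many genes came close: r was at least 0.95 for 60 genes with Marco, 19 with Msr1 and 135 with Emr1. It was so for 32 genes with Gpnmb, 81 with Vcam1 and 148 with Cd68. Among the members, Marco with Emr1 (0.933), Gpnmb with Cd68 (0.927) and Marco with Vcam1 (0.909) were the most alike, and Marco with Msr1 (0.2) the least, over the same 8 means.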

How the data were processed

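RNA of 16 libraries in 8 groups of 2 was measured by paired-end sequencing, per the labels' protocols. The authors deposited 1 table of FPKM per gene symbol; the program that computed FPKM is not stated in these sources (STAR, HTSeq, DESeq2, cutadapt, FastQC and mm10 are named in the submitters' processing notes, with no role). Of 24001 rows, 1237 of small RNAs were left out, 5724 were 0 throughout, 27 carried symbols turned into dates, and 5 zeros in 4 otherwise expressed genes were taken as missing. Genes at 1 FPKM or more in 2 libraries (11346) were tested as log2(FPKM + 1) with limma 3.58.1 in R 4.3.3 (trend and robust options, Benjamini-Hochberg adjustment within each of 12 comparisons, threshold 0.05), on 12 samples with 4 residual degrees of freedom. Depth was estimated from the smallest steps of 4064 single-transcript genes, with 47.3 to 53.2% of low values within 0.1 fragment of a whole number. The fit was tested on simulated data, with changes added only to the WT agonist group. All simulated libraries varied independently, with the spread of the unoperated ones. The assumption made for the ovariectomized samples was therefore not tested. Raw reads of 5 libraries were in part or wholly corrupted, per the labels (WT vehicle 1, WT agonist 1, KO vehicle 2, KO agonist 2, ERKO OVX agonist 2); their deposited FPKM values were used. All 7 genes are named, and from each list up to 4 with the largest change past the threshold. One listed gene is not reported here. The genes and lists were chosen with earlier results of these data known.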

Additional observations from a re-analysis of the deposited data

Results flagged for a closer look

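In the ovariectomized arms, 4 genes had a different agonist response in Ex3a OVX than in ERKO OVX by an interaction term in the limma fit. The log2 difference was 1.37 for Marco (adjusted p = 2.96e-05), 0.75 for Emr1 (7.89e-05), -0.21 for Gpnmb (0.0114) and -0.55 for Vcam1 (0.00616). Each arm's treatment group counted as 1 sample there, and the spread was taken from the unoperated groups. The genotype labels of the vehicle and agonist libraries of the ERKO OVX arm name different alleles.

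In the unoperated arms, 2 genes had a different agonist response in KO than in WT by the same kind of term. The log2 difference was 0.22 for Emr1 (adjusted p = 0.014) and -0.19 for Gpnmb (adjusted p = 0.0105). Neither passed without the second WT vehicle library (0.0556 and 0.0589) or with no filter on low genes (0.0667 and 0.0555). The genotype labels of the vehicle and agonist libraries of the KO arm name different alleles.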

How the results depend on the processing

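Of 1728 values (72 gene and comparison values under 24 alternatives), 1698 kept their direction and side of the threshold, 11 newly passed it, 10 no longer passed it and 9 reversed. The cause was not tested. Of the alternatives, 16 each left out 1 library. Where that library lay outside the compared groups, the estimate could not change. Leaving out 1 library of an ovariectomized pair changed little, as its libraries were nearly alike. The count of 1698 was thus partly fixed in advance and does not measure robustness. The number of genes past the threshold was 6 in place of 3 for the ERKO OVX response with all 16 libraries as separate samples. For the KO minus WT response it was 0 in place of 2 with no filter on low genes, and 0 to 2 when 1 library was left out: 0 without WT vehicle replicate 2 and 1 without KO vehicle replicate 1. Reversed values with equal FPKM sums were 0.0074 for Gpnmb in the ERKO OVX response, -0.1286 for Cd68 in Ex3a OVX against ERKO OVX with agonist, -0.3872 and -0.1341 for Msr1 in ERKO OVX against KO with vehicle and agonist, and -0.1321 for Cd68 in Ex3a OVX minus ERKO OVX. With median ratio scaling they were -0.0018 for Msr1 in ERKO OVX against KO with vehicle and -0.0036 for Cd68 in Ex3a OVX minus ERKO OVX; the latter lay between -0.0084 (without Ex3a OVX agonist replicate 1) and 0.0169 when 1 library was left out. Vcam1 in KO minus WT was 0.0317 with a pseudocount of 5 FPKM.

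Over all genes, the calls for KO minus WT were 790, against 404 with no filter and 431 (without WT vehicle replicate 1) to 792 when 1 library was left out (433 without WT vehicle replicate 2 and 433 without KO vehicle replicate 1, 485 without WT agonist replicate 2, 498 without KO vehicle replicate 2). For Ex3a OVX minus ERKO OVX they were 3546, against 5534 with all 16 libraries. Equal FPKM sums moved the share of higher calls from 53.26% to 32.51% in the WT response, 48.86% to 70.19% in ERKO OVX, 51.0% to 33.98% in Ex3a OVX, 49.6% to 71.29% in KO against WT with agonist and 51.17% to 30.65% in Ex3a OVX against ERKO OVX with agonist. In ERKO OVX against KO it moved from 50.59% to 22.58% with vehicle and 50.96% to 26.49% with agonist, in KO minus WT from 33.04% to 74.71% and in Ex3a OVX minus ERKO OVX from 53.21% to 21.73%.

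Libraries of different groups share a replicate number. The differences between the 2 libraries of a group correlated between groups at -0.0726 to 0.0545, so no pairing by number was seen. In ovariectomized groups the 2 libraries differed by less than sampling noise, so these correlations could not show a pairing there. A fit with the replicate number as a block changed no call of the 6 genes (2 of 6 in KO minus WT as before, with 653 calls over all genes in place of 790). Each ovariectomized pair entered that fit as its mean, so the block covered only the unoperated libraries.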
